A study of Mus musculus with 4 samples.

Results

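ERVK editing sites were the positions of ERVK repeats at which endothelial cell (EC) RNA was read as G where the genome has A. The deposited table of candidate A-to-I editing sites held 1205261 sites, of which 22285 lay in LTR repeats of the ERVK family. A site was a member when at least 1 of the 4 libraries covered it with 5 or more reads, with 3 or more altered reads and with an editing rate (altered reads over all reads) between 0.05 and 0.95. This left 527 ERVK sites of 24200 passing sites in the whole table (2.18%), in 342 repeat elements of 129 repeat names, annotated to 272 genes. Because the members were chosen by their read counts and rates, the numbers that passed and the levels of the rates are descriptions.

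The ECs came from the lungs of 2 mice from independent litters, EC1 and EC2, and were selected on the surface markers CD31 and ICAM-2. Both mice were male C57/BL6 animals 2 weeks old and carried an inducible ADAR1 knockout, in which 4-OH-tamoxifen induces the deletion of part of the ADAR1 gene. The promoter that drives the inducible Cre recombinase is not given in the sources used here. Cells of each mouse were cultured untreated (CON) or with 4-OH-tamoxifen (TM), so the CON cells carried the same alleles and did not receive the drug. The drug and the deletion it induces cannot be told apart in these 4 libraries. With 1 library per mouse and condition, the p-values of genes measure the spread between these samples only. Those of the tests on reads measure the sampling of reads within these libraries and hold no spread between mice.

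ERVK elements are mouse endogenous retroviruses of the class that includes the intracisternal A particles (IAP). They are left in the genome as internal parts, named with the ending int, and as long terminal repeats (LTRs), named RLTR, RMER or IAPLTR, and most lie in introns or between genes. ADAR1 deaminates adenosine to inosine in double-stranded RNA, and inosine is read as G. Repeats that lie close together on opposite strands of the same transcript can fold back into such a duplex.

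The sequences below carry the sites around which the results turn. They are mouse transcript sequences from GENCODE vM21 (GRCm38), printed 5′ to 3′ on the edited strand, with the edited A in capitals. The RLTR17B_Mm LTRs in the 3′ UTRs of Ids (iduronate 2-sulfatase, a lysosomal enzyme) and Tnrc6b (a scaffold of microRNA silencing) are shown for their alternating purines and pyrimidines, the RMER4A copies of Wdr76 because they lie in opposite directions in 1 transcript, and the sites of the Ifi200 genes, which encode interferon-inducible DNA-binding proteins of the PYHIN family, because those of Ifi208 and Ifi213, and those of Ifi203-ps and Ifi203, are near copies of each other.

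Ids, chrX:70344650, minus strand: gtatatatacatatAcatacacatacata

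Ids, chrX:70344688, minus strand: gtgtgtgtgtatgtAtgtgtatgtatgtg

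Tnrc6b, chr15:80932399, plus strand: atatgtatgtacatAtatatatgcacata

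Wdr76, chr2:121543758, plus strand: gacagtttctgcaaAtgcgtgacatttgg

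Wdr76, chr2:121544309, plus strand: caattgaagaaattAtctatagctggcaa

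Ifi208 (Pydc3 in the site table), chr1:173697417, plus strand: agagttcttctgagAtttgtaactacgac

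Ifi213 (Pydc4 in the site table), chr1:173567257, minus strand: agagttcttctgagAtttgtaactacgac

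Ifi203-ps, chr1:173794072, minus strand: aactacatttcgtgAgagaattaagaaac

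Ifi203, chr1:173933793, minus strand: aactacattttgtgAgagaattaaggcac

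Where 4 values follow each other without a name, they stand in the order EC1 CON, EC1 TM, EC2 CON, EC2 TM. Of the 527 members, 232 passed in CON and 185 in TM of EC1, and 216 in CON and 261 in TM of EC2. As a share of all passing sites, with 95% Wilson intervals, they made up 1.94% of EC1 CON (1.71 to 2.20%) and 1.95% of EC1 TM (1.69 to 2.25%). The share was 2.03% for EC2 CON (1.78 to 2.32%) and 2.13% for EC2 TM (1.89 to 2.41%). The 4 intervals overlapped. Of the members, 305 passed in 1 library only and 51 passed in all 4. The median depth at a passing member was 11 to 14 reads. Most rates therefore rest on few reads. These intervals cover counting error only.

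At the edge of the selection, 50 to 71 of the passing ERVK sites of a library had exactly 3 altered reads, and 157 to 202 further ERVK sites of that library had 2 altered reads and did not pass. At the upper edge, 315 to 474 ERVK sites of a library had a rate above 0.95 and did not pass there, and 112 members had such a rate in at least 1 library. No site of the table was listed in a library with 0 altered reads, so a site that a library does not list may have been covered and unaltered or not covered at all. Following the study's comparison, an unlisted site was given a rate of 0, and the values over sites with 5 or more reads in both libraries are given beside it. So counted, the 112 members above 0.95 had a CON minus TM of -0.00527 in EC1 (60 sites) and 0.0512 in EC2 (72 sites). The study compared the libraries of each mouse to limit the influence of genomic variants, and relied only on sites that differed. Members were not held to this here, and whether some are genomic variants was not tested.

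The gene count tables held 1095488 to 1778732 counts on genes per library, which was 0.823 to 0.858% of all their rows. These counts may be of reads opposite to the strand of the gene, as described with the processing. The gene results below are thus differences of the deposited counts, and how far they follow expression was not tested. Summed counts of the endothelial marker genes were 1089 to 1244 CPM (counts scaled to library size) in the 4 libraries, against 34.9 to 47.7 CPM for leukocyte, 479 to 543 CPM for fibroblast or smooth muscle and 1.79 to 6.29 CPM for epithelial markers. No endothelial marker gene passed the test between TM and CON (edgeR, 8 of the 10 markers tested, 0 higher and 1 lower at an unadjusted p under 0.05), but with the mouse as a block Tie1 passed as lower in TM (log2 difference -0.89, edgeR adjusted p = 0.0251). Adar, the gene of ADAR1, had 9 counts in CON and 47 in TM of EC1, and 16 in CON and 71 in TM of EC2. Both libraries labelled TM thus held more Adar counts than both labelled CON (log2 difference 1.87, SE 0.448, edgeR adjusted p = 0.00609; DESeq2 adjusted p = 0.0891). These counts span the whole gene and not the deleted exons, so they do not check the deletion.

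Across all ERVK sites, the average editing rate was a little lower in TM than in CON, and in EC2 this direction depended on the setting. In EC1, the 332 sites that passed in either library had a mean rate of 0.417 in CON and 0.373 in TM. In EC2, the 377 such sites had a mean rate of 0.412 in CON and 0.398 in TM. The difference of CON minus TM was 0.0287 ± 0.0213 (SD, n = 2 mice), with an exact two-sided sign permutation p of 0.5, the smallest that 2 mice allow. The difference was also positive when the sites were chosen in the other mouse, with 0.0223 in EC1 and 0.0419 in EC2. Over sites that both libraries of a mouse listed, CON exceeded TM by 0.0441 in EC1 and by 0.0906 in EC2. With unlisted sites again as 0 but a depth of at least 20 in the passing library, the mean difference of the 2 mice was -0.000743, so the direction was not kept at the deeper sites. The difference of EC2 alone turned at this depth (-0.0132), with 5 or more altered reads (-0.0128), with reads pooled over sites (-0.0162) and as a mean over elements (-0.0132), whereas that of EC1 was positive in each of these.

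Sites were counted in both directions by a rule that does not test for read sampling. By the study's rule (a rate difference of at least 0.05, with the higher library passing), 148 of the 332 ERVK sites of EC1 were CON > TM (44.6%), where 43.5% of all passing sites of the table were. In the opposite direction, 103 ERVK sites of EC1 were CON < TM (31.0%), against 28.6% of all passing sites. In EC2, 136 of 377 ERVK sites were CON > TM (36.1%), against 37.2% of all passing sites, and 132 were CON < TM (35.0%), against 33.4%. The shares of ERVK sites in each direction were thus near those of the whole table in each mouse. Many of these sites were unlisted on the lower side, 70 of the 148 and 56 of the 103 in EC1, and 36 of the 136 and 77 of the 132 in EC2.

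Of the 182 ERVK sites that passed in both mice, 41 were CON > TM in both (22.5%), against 21.2% of all passing sites, and 32 were CON < TM in both (17.6%), against 11.3%. A further 25 went in opposite directions in the 2 mice. Of the 32 sites that were CON < TM in both mice, 15 lay in the Ifi200 locus described below. Outside this locus, 11.2% of 152 sites were CON < TM in both mice and 27.0% were CON > TM. For comparison, 38.0% of the B1 sites passing in both mice were CON > TM in both and 4.75% were CON < TM. Outside repeats these shares were 13.1% and 14.2%.

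The direction of a site in 1 mouse was compared with the other mouse, which had no part in its choice. Of all ERVK sites with 5 or more reads in both libraries, 88 of 165 were higher in CON in EC1 (53.3%) and 121 of 199 in EC2 (60.8%). Of the 148 ERVK sites that were CON > TM in EC1, 58 had 5 or more reads in both libraries of EC2, where their mean rate was 0.476 in CON and 0.354 in TM and 39 were higher in CON (67.2%). Of the 136 such sites of EC2, 45 could be read in EC1, with mean rates of 0.514 in CON and 0.424 in TM and 27 higher in CON. These shares lay a little above those of all ERVK sites. The sites that were CON < TM lay below them. Those of EC1 had a mean rate of 0.461 in CON and 0.440 in TM of EC2 (32 sites, 15 higher in CON), and those of EC2 had 0.422 in CON and 0.447 in TM of EC1 (28 sites, 11 higher in CON). B1 sites called CON > TM in EC1 were higher in CON in EC2 in 79.0% of 1060 cases, and sites outside repeats in 53.7% of 1361.

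**Figure D1:**
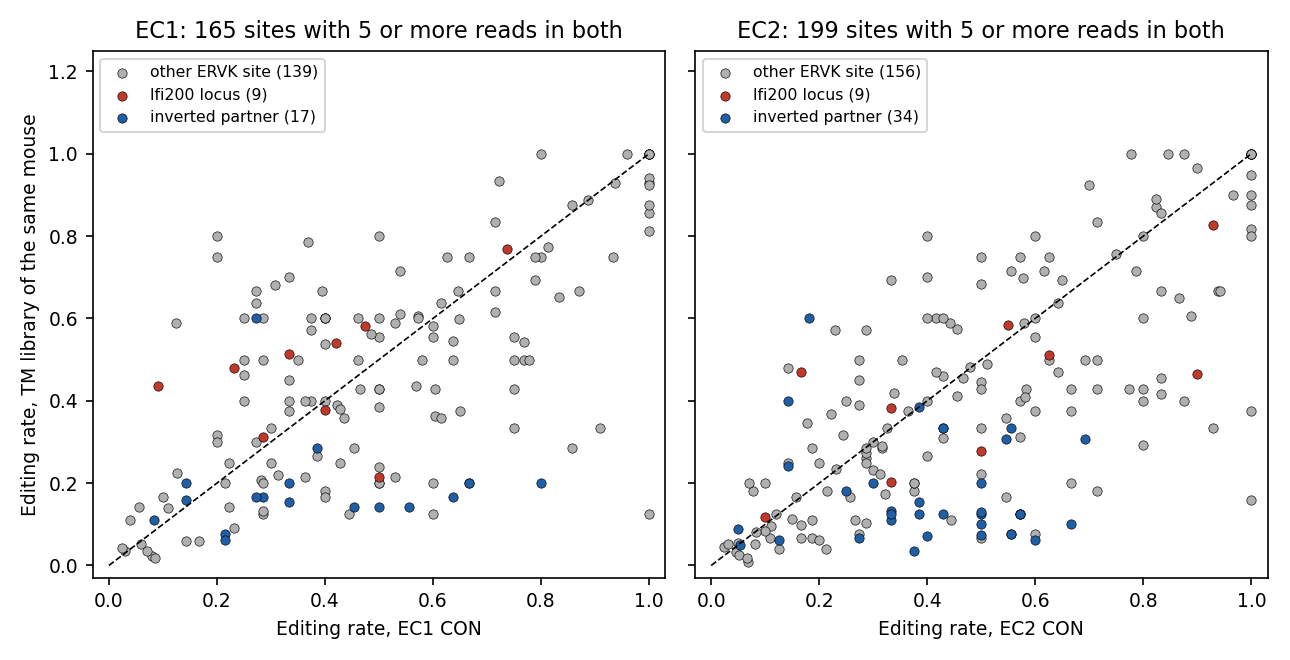
Editing rate in CON (x axis) and TM (y axis) of the same mouse at ERVK sites with 5 or more reads in both libraries, EC1 on the left (165 sites) and EC2 on the right (199 sites). Each point is 1 site, the dashed line marks equal rates, and most of the sites whose element has an inverted partner (blue) lie under the line, 13 of 17 in EC1 and 29 of 34 in EC2.

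On reads, few ERVK sites could be told apart singly. At the 111 ERVK sites with 5 or more reads in all 4 libraries, an exact test of altered against reference reads, stratified by mouse and adjusted over the 20243 sites of the table that entered, called 1 site higher in CON and 0 higher in TM. At an unadjusted p under 0.05, 10 were higher in CON and 2 in TM. Over all sites tested, 1.42% were called higher in CON and 0.0741% higher in TM, and over those that passed the selection 3.82% and 0.189%. The rate difference favoured CON at 69 of the 111 ERVK sites (62.2%), with a median difference of 0.0357, and at 60.9% of the 7407 passing sites of the whole table. Fisher's exact test within a mouse called 0 of 165 ERVK sites in EC1 (2 higher in CON and 6 higher in TM at an unadjusted p under 0.05) and 0 of 199 in EC2 (16 and 1). The share of all sites called by it was 0.132% higher in CON and 0.00883% higher in TM in EC1, and 0.339% and 0.00842% in EC2.

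The site that passed lay in an RLTR11A2 LTR within an intron of Nek6, a mitotic kinase gene (chr2:38557151). Altered reads were 9 of 9 in CON and 1 of 8 in TM of EC1, and 8 of 10 in CON and 6 of 15 in TM of EC2. Both CON libraries were thus above both TM libraries (adjusted p = 0.0150, exact stratified test, which counts reads and not mice). With either mouse alone it no longer passed, with adjusted p values of 1 without EC1 and 0.194 without EC2. The next site in order of p was in an IAPLTR1_Mm LTR in an intron of Slc15a2, which encodes a peptide transporter (chr16:36769992). It had 26 of 206 altered reads in CON and 29 of 129 in TM of EC1, and 93 of 380 in CON and 72 of 228 in TM of EC2. The rate was higher in TM within each mouse, although EC2 CON exceeded EC1 TM, and the adjusted p was 0.208.

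The 18 ERVK sites with 20 or more reads in every library showed how small most differences were where depth was high. None of them was CON > TM by the rule in both mice, and 2 were CON < TM in both, the Slc15a2 site and a site in an MLTR31E_MM LTR near D430020J02Rik (chr12:116375372). The latter had 21 of 39 altered reads in CON and 41 of 67 in TM of EC1, and 15 of 26 in CON and 23 of 33 in TM of EC2. An RMER16C LTR in an intron of Map4k4, a stress kinase gene, was read at 0.647 in CON and 0.599 in TM of EC1, and 0.510 in CON and 0.490 in TM of EC2 (chr1:40013459, 202 to 259 reads). Here the 2 mice differed more than CON and TM did. A site near Gm10471 in an RLTR31M LTR was read at 0.886 in both libraries of EC1, at 0.750 in CON and at 0.757 in TM of EC2 (chr5:26052036).

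By repeat name, the internal IAP part IAPEz-int held the most sites, and the widest gap between CON and TM was that of RLTR33. IAPEz-int held 52 sites in 48 elements, so nearly every element had a single site. Its mean rate over all 52 sites was 0.441 in CON and 0.404 in TM of EC1, and 0.413 in CON and 0.355 in TM of EC2. RLTR17B_Mm held 34 sites in 18 elements with mean rates of 0.422, 0.306, 0.428 and 0.237 in the same order. Both CON values lay above both TM values for each of these names. Over the sites of IAPEz-int listed in both libraries, CON minus TM was -0.0553 in EC1 and 0.0119 in EC2. With 5 or more reads in both libraries it was -0.000432 (13 sites) and 0.118 (17 sites). For RLTR17B_Mm the difference was near 0 when each element counted once (0.00406 in EC1 and 0.00237 in EC2), and it turned at a depth of 20 (-0.0532 and -0.0828). With 5 or more reads in both libraries it was 0.0846 in EC1 (5 sites) and 0.199 in EC2 (14 sites).

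RLTR33 held 23 sites in 3 elements, with mean rates of 0.282 in CON and 0.0573 in TM of EC1, and 0.447 in CON and 0.0991 in TM of EC2. MRLTR33 held 10 sites in 2 elements, with 0.213, 0.0143, 0.381 and 0.0833. RLTR31B2, also with 10 sites, had 0.250, 0.142, 0.38 and 0.144. RMER4A had 0.367, 0.264, 0.345 and 0.301 over 23 sites. RLTR25B had 0.302, 0.103, 0.201 and 0.148, and RLTR20A4 0.292, 0.256, 0.417 and 0.226, over 11 sites each. All these LTR names had lower means in TM in both mice, with the widest gap for RLTR33. With 5 or more reads in both libraries, CON minus TM was 0.395 (3 sites) and 0.416 (11 sites) for RLTR33. It was 0.0270 (12 sites) and 0.119 (16 sites) for RMER4A, and 0.219 (3 sites) and -0.0114 (1 site) for RLTR25B. Without elements with an inverted partner, described below, RMER4A turned (CON minus TM -0.0397 in EC1 and -0.117 in EC2), and RLTR31B2 turned in EC1 (-0.0667).

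Other names went the opposite way or differed between the mice. ERVB2_1-I_MM-int, with 20 sites in 3 elements of the Ifi200 locus, had mean rates of 0.0917 in CON and 0.313 in TM of EC1, and 0.0792 in CON and 0.239 in TM of EC2, and 0 of its sites passed in either CON library. Each CON library listed 3 of the 20 sites, at 1 to 6 reads, and the others counted as 0. At the sites listed in both libraries CON was above TM by 0.327 in EC1 and 0.311 in EC2. A site is listed only with an altered read, so at this depth a high CON rate was largely fixed in advance. Which rate was higher cannot be told from these values. RMER19B had 0.247, 0.319, 0.262 and 0.472 over 10 sites, and over sites listed in both libraries CON exceeded TM by 0.112 in EC1 and by -0.0722 in EC2. IAPEY4_I-int had 0.611, 0.404, 0.471 and 0.514 over 18 sites, so TM was lower in EC1 and higher in EC2, but at sites with 5 or more reads in both libraries CON exceeded TM by only 0.0125 in EC1 and 0.0107 in EC2. ERVB4_3-I_MM-int held 13 sites in 1 element of chromosome 14 near Vmn2r89, which passed only in EC2 TM and were listed in neither library of EC1.

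**Figure D2:**
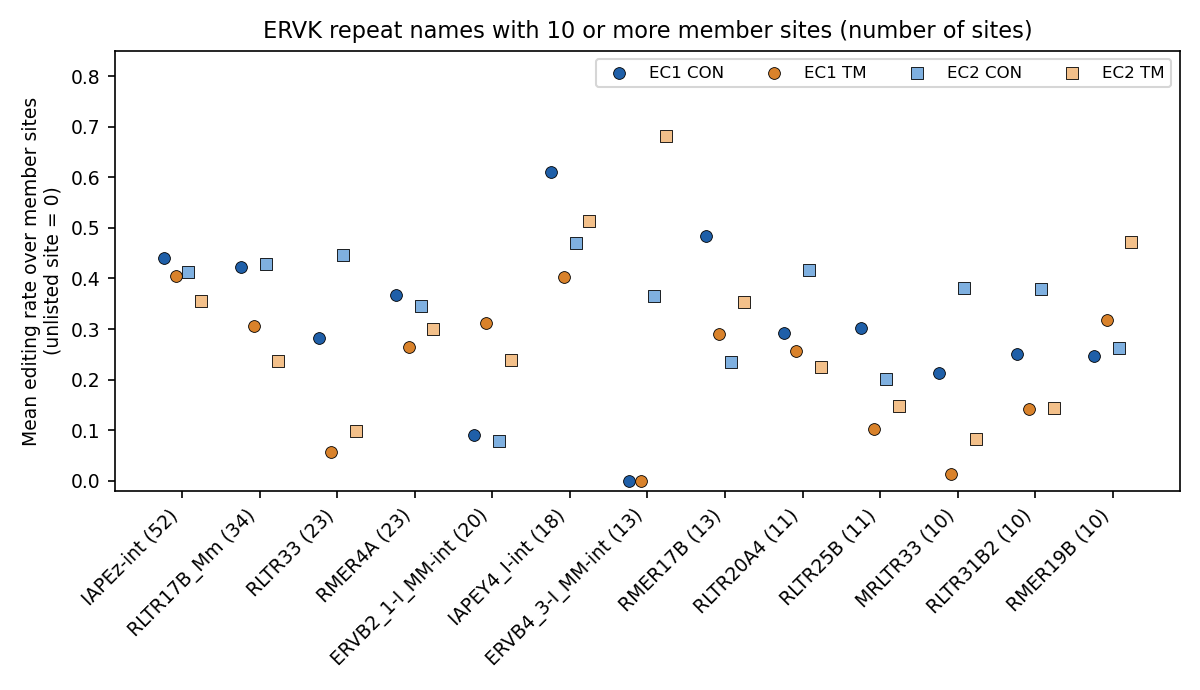
Mean editing rate (y axis, unlisted sites counted as 0) over the member sites of each ERVK repeat name with 10 or more sites (x axis, number of sites in brackets), with 1 point per library. Both TM points lie under both CON points for RLTR33 (0.0573 and 0.0991 against 0.282 and 0.447). They lie above them for ERVB2_1-I_MM-int (0.313 and 0.239 against 0.0917 and 0.0792), where each CON library listed 3 of the 20 sites, at 1 to 6 reads.

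By gene region, 262 of the members were intronic, 107 lay in the 3′ distal and 97 in the 5′ distal regions (within 50 kb of a gene), and 45 lay in 3′ UTRs. A further 11 were downstream of a gene, 3 were exonic and 2 were in promoters. With unlisted sites as 0, the 3′ UTR sites had lower mean rates in TM in both mice. Of these, 23 passed in CON and 8 in TM of EC1, and 38 in CON and 20 in TM of EC2, with mean rates over all 45 of 0.288, 0.149, 0.327 and 0.178. Of the 24 that passed in both mice, 11 were CON > TM in both and 0 were CON < TM in both. Over sites chosen in the other mouse and read with 5 or more reads in both libraries, the 3′ UTR means were 0.316 in CON and 0.212 in TM of EC1 (15 sites, 12 higher in CON), and 0.399 in CON and 0.267 in TM of EC2 (20 sites, 14 higher in CON). At the 20 sites listed in all 4 libraries, altered reads were 25.1% in CON and 21.2% in TM of EC1, and 25.8% in CON and 24.2% in TM of EC2. Of the 45 sites, 24 lay in alternating windows and 13 in the Wdr76 pair, both described below.

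The intronic sites showed mean rates of 0.379 in CON and 0.367 in TM of EC1, and 0.398 in CON and 0.389 in TM of EC2, with 15 sites CON > TM and 17 CON < TM in both mice. The 5′ distal sites had 0.343, 0.273, 0.358 and 0.272, and with 5 or more reads in both libraries CON minus TM was -0.00407 in EC1 and 0.173 in EC2. They included the RLTR33 cluster next to Cnpy2. Of all members, 249 lay in elements on the same strand as the annotated gene and 278 in elements on the opposite strand. The mean rate was higher in CON by 0.0540 in EC1 and 0.0369 in EC2 at the former, and by 0.0335 in EC1 and -0.00748 in EC2 at the latter. With 5 or more reads in both libraries these were 0.0528 and 0.138, and 0.0186 and 0.0399.

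Most elements with a member held a single site. The mean difference between CON and TM was wider over the 10 elements with 5 or more, a class on which 1 cluster weighs. Of the 342 elements, 260 had 1 member, 47 had 2, 25 had 3 or 4 and 10 had 5 or more, up to 15. Sites alone in their element differed by 0.00489 in EC1 and -0.0224 in EC2 (CON minus TM), and with 5 or more reads in both libraries by 0.0150 (100 sites) and 0.0407 (95 sites). Sites in elements with 5 or more members differed by 0.158 in EC1 and 0.133 in EC2, and over those with 5 or more reads in both libraries by 0.265 (11 sites) and 0.294 (31 sites). Of the 89 sites of this class, 11, 10 and 9 lay in neighbouring elements of the RLTR33 cluster, described below, where every site passed through CON. The elements with the most sites, of ERVB2_1-I_MM-int (15) and ERVB4_3-I_MM-int (13), passed in no CON library. Sites of 1 element share reads and are not independent of each other. Neighbouring members of an element were 42 bases apart in the median, and 10 of the 185 spacings were between adjacent bases.

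A minority of the elements with 3 or more members had a partner of like name on the other strand close by. This share was larger than among elements with fewer members. A partner was counted when an ERVK element of like name on the opposite strand lay within 2000 bases, among the elements listed in the table, which is not a full catalogue of repeats. Of the 35 elements with 3 or more members, 9 had such a partner (25.7%, 95% Wilson interval 14.2 to 42.1%). Of the 307 elements with 1 or 2 members it was 17 (5.54%, 3.49 to 8.69%), and of the 11099 listed elements without a member 140 (1.26%, 1.07 to 1.49%). The intervals did not overlap, but they treat elements as independent. Both arms of a pair were counted, and the 9 elements were annotated to 5 genes. A partner could also be counted only where reads had listed it. This class was drawn up after the values had been seen, and no test was made of it.

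The 75 sites in the 26 elements with an inverted partner had a lower mean rate in TM than in CON in both mice. Of these, 37 passed in CON and 3 in TM of EC1, and 51 in CON and 13 in TM of EC2. Passing mostly through CON leans the direction to CON. Of the 75 sites, 63 were listed in CON and 21 in TM of EC1, and 66 in CON and 48 in TM of EC2. With unlisted sites as 0, their mean rate was 0.368 in CON and 0.0758 in TM in EC1 (38 sites), and 0.400 in CON and 0.155 in TM in EC2 (57 sites). With 5 or more reads in both libraries it was 0.370 and 0.187 in EC1 (17 sites, 13 higher in CON), and 0.403 and 0.169 in EC2 (34 sites, 29 higher in CON). Sites chosen in the other mouse gave 0.404 in CON and 0.181 in TM in EC1 (11 sites, 9 higher in CON), and 0.397 and 0.198 in EC2 (14 sites, 12 higher in CON). Of the 20 that passed in both mice, 15 were CON > TM in both and 0 were CON < TM in both.

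A difference remained without the 31 sites of the RLTR33 cluster. With unlisted sites as 0, CON then exceeded TM by 0.255 in EC1 and 0.128 in EC2. These 44 sites passed mostly through CON (26 and 3 in EC1, 24 and 13 in EC2), which leans the direction to CON. With 5 or more reads in both libraries they had 0.314 in CON and 0.190 in TM of EC1 (9 of 13 higher in CON). In EC2 it was 0.342 and 0.196 (18 of 23 higher in CON). Over the 408 sites with no inverted partner and outside the Ifi200 locus, CON minus TM was 0.0459 in EC1 and -0.0153 in EC2 with unlisted sites as 0. With 5 or more reads in both libraries these sites had mean rates of 0.509 in CON and 0.486 in TM of EC1, and 0.501 in CON and 0.444 in TM of EC2 (87 of 156 higher in CON), so the sign of EC2 turned. Elements with 3 or more members but no partner differed by 0.0607 in EC1 and -0.0200 in EC2, against 0.316 and 0.259 for those with a partner. With 5 or more reads in both libraries, those without a partner had 0.505 in CON and 0.490 in TM of EC1 (11 of 21 higher in CON), and 0.515 in CON and 0.388 in TM of EC2 (24 of 33 higher in CON).

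**Figure D3:**
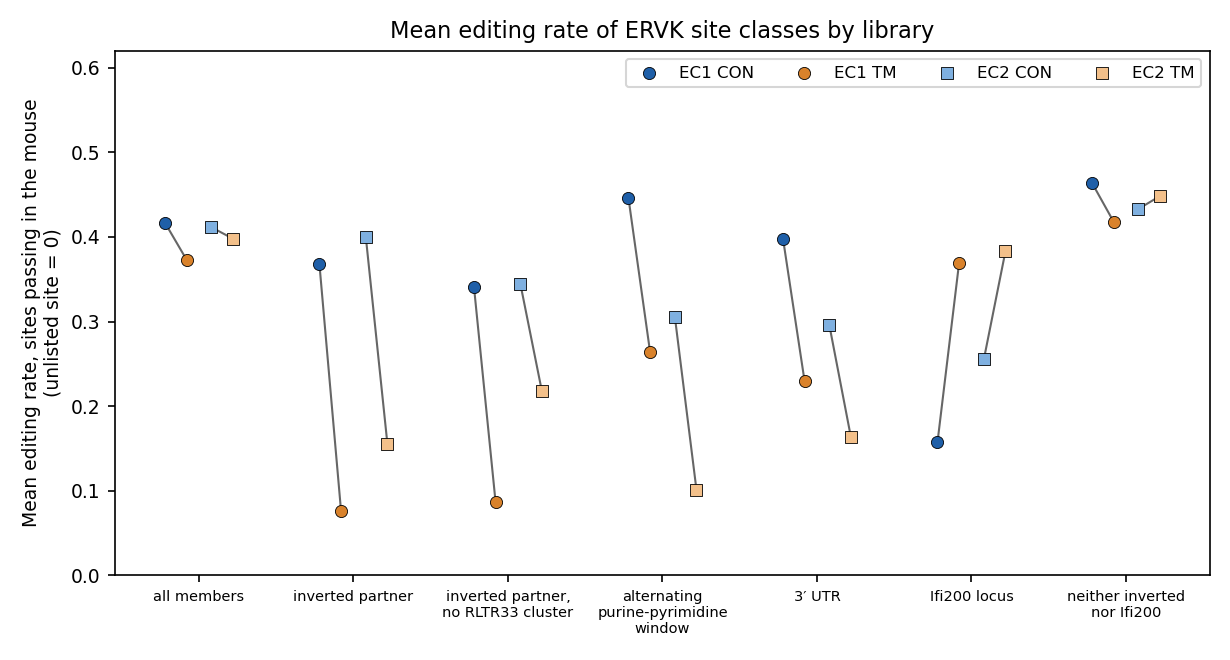
Mean editing rate (y axis, unlisted sites counted as 0) of classes of ERVK sites (x axis) over the sites that passed in the mouse, with 1 point per library and a line joining CON and TM of a mouse. Sites with an inverted partner, which passed mostly through CON, had 0.368 in CON and 0.0758 in TM of EC1, where TM listed 21 of 75. Sites of the Ifi200 locus, which passed mostly through TM, were higher in TM in both mice with unlisted sites as 0.

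The largest group was a cluster of 4 RLTR33 and MRLTR33 LTRs at chr10:128328508-128330246, in the order minus, plus, plus, minus. It starts 955 bases past the end of Cnpy2, a gene of endoplasmic reticulum function, and the site table assigns it to the 5′ distal region of Ankrd52. It held 31 sites, of which 11 passed in EC1 CON, 27 in EC2 CON and 0 in either TM library. Summed over the sites a library listed, altered reads were 66 of 235 in CON and 5 of 25 in TM of EC1, and 104 of 244 in CON and 15 of 122 in TM of EC2. The TM libraries listed 5 and 15 of the 31 sites, with 2 to 7 and 3 to 16 reads at a site, against 3 to 15 and 5 to 14 in CON. Whether the unlisted sites were covered in TM is not known from these values.

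Within the cluster, the site at chr10:128330020 was altered in 4 of 5 reads in CON and 1 of 5 in TM of EC1, and 5 of 9 in CON and 1 of 13 in TM of EC2. Both CON values were above both TM values, but the adjusted p was 0.244 in the exact stratified test. All 31 sites passed through a CON library, which largely fixes this direction. At the 3 sites of each mouse that passed in the other mouse and had 5 or more reads in both libraries, the mean rates were 0.584 in CON and 0.189 in TM of EC1, and 0.570 in CON and 0.0721 in TM of EC2.

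In the 3′ UTR of Wdr76, which encodes a WD repeat protein, the RMER4A copies at chr2:121543594-121544071 (plus strand, 6 sites) and chr2:121544131-121544468 (minus strand, 7 sites) lay 59 bases apart. Aligned with 1 copy reversed and complemented, they matched at 224 of 307 columns (73.0%). The site at chr2:121544309 was altered in 7 of 11 reads in CON and 1 of 6 in TM of EC1, and 9 of 13 in CON and 4 of 13 in TM of EC2. The site at chr2:121543758 on the other arm was altered in 2 of 6, 2 of 13, 5 of 10 and 4 of 31 reads in the same order. Both were lower in TM in each mouse, with adjusted p values of 0.418 and 0.686 in the exact stratified test. Other sites of the pair were not of this kind, for chr2:121544313 was altered in 5 of 13 reads in CON and also in TM of EC2.

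A pair of RLTR31B2 LTRs lay in opposite directions within the GENCODE limits of Emd, the gene of the nuclear envelope protein emerin, at chrX:74258223-74258528 and chrX:74258845-74259053 with 4 sites each. The site at chrX:74259000 was altered in 6 of 22 reads in EC1 CON, 3 of 9 in CON and 2 of 18 in TM of EC2, and EC1 TM did not list it. EC1 TM listed none of the 8 sites of the pair. EC2 TM listed 5 of them at 0.0625 to 0.125, values that were below those of EC2 CON at each.

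**Figure D4:**
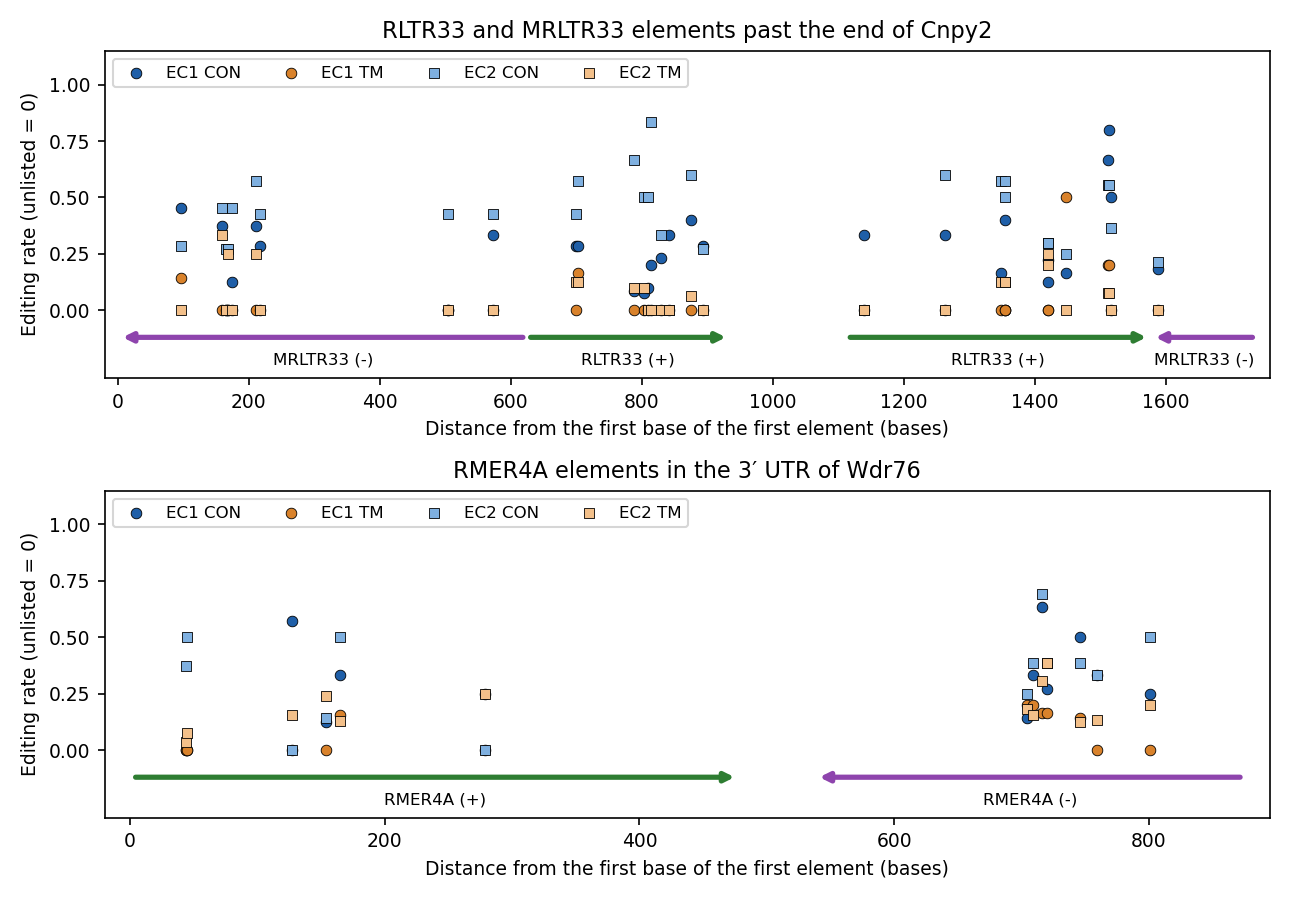
Editing rate (y axis, unlisted sites at 0) against the distance in bases from the start of the first element (x axis) for the RLTR33 cluster past Cnpy2 (top, 31 sites) and the RMER4A pair of Wdr76 (bottom, 13 sites), with 1 point per site and library and arrows for the elements and their strand. In the cluster 0 TM values passed the selection, and the Wdr76 sites lie on both arms of the pair.

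The 19 of 34 RLTR17B_Mm sites whose sequence could be read had a different feature, a run of alternating purines and pyrimidines. Sequence could be read for the 93 members that lie in a GENCODE exon on the edited strand, and all 93 had A at the given position. Of the 30 steps in a window of 31 bases, a median of 14 (range 5 to 30) changed between purine and pyrimidine over all 93, of 30 (28 to 30) over the 19 RLTR17B_Mm windows, and of 25 (24 to 30) over the 8 windows of RLTR20A4. The 13 RMER4A windows of Wdr76 had 16 (12 to 19). The 30 members with 24 or more such steps, in 13 elements, had a mean rate of 0.446 in CON and 0.264 in TM of EC1 (15 sites), and of 0.306 in CON and 0.101 in TM of EC2 (27 sites). These means count unlisted sites as 0, and the sites passed mostly through CON (12 and 4 in EC1, 25 and 8 in EC2). With 5 or more reads in both libraries they were 0.190 and 0.0957 in EC1 (4 sites), and 0.324 and 0.131 in EC2 (19 sites). At the 9 sites listed in all 4 libraries, altered reads were 17.5% in CON and 14.3% in TM of EC1, and 19.5% in CON and 10.7% in TM of EC2. Of the 12 that passed in both mice, 8 were CON > TM in both and 0 CON < TM in both. The other 63 members with a window had 4 and 6 of 31. This split was also made after the values were seen and was not tested. Whether reads were placed on the right copy of such runs was not tested either.

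The Ids LTR (chrX:70344573-70344695) held 7 sites. At chrX:70344650, 5 of 7 reads were altered in CON and 1 of 3 in TM of EC1, and 13 of 14 in CON and 2 of 6 in TM of EC2. At chrX:70344688 they were 6 of 10, 1 of 2, 10 of 14 and 2 of 11. Both CON libraries were above both TM libraries at each site, although EC1 TM had 3 reads or fewer. The G form of the window at chrX:70344688 also occurs in a transcript of Acot11, so reads from another copy cannot be told apart from edited reads there.

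The Tnrc6b LTR (chr15:80932301-80932407) held 5 sites. At chr15:80932399, 4 of 10 reads were altered in CON and 1 of 6 in TM of EC1, and 9 of 18 in CON and 1 of 15 in TM of EC2. CON was above TM in both mice (adjusted p = 0.371, exact stratified test). The RLTR20A4 LTR of Zbtb7b, a transcription factor gene, held 4 sites at low rates. At chr3:89379234, it had 3 of 35 altered reads in CON and 1 of 54 in TM of EC1, and 3 of 58 in CON and 3 of 116 in TM of EC2.

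Of the bases beside the 93 edited A, G stood directly before 8.6% and T before 38.7%, whereas G stood before 17.7% and T before 31.8% of the 841 other A in the same windows. G followed 25.8% of the edited A and 18.1% of the others. ADAR enzymes are known to disfavour a G before the edited A. For 13 of the windows the A form also occurred in a transcript of another gene, and for 12 the G form occurred in a transcript, so that at these members reads of another copy and edited reads cannot be told apart by sequence.

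Many of the sites with higher rates in TM lay in 1 locus. The Ifi200 locus, chr1:173567257-173943159, held 44 members in 21 elements annotated to AI607873, Ifi203, Ifi204, Mnda, Pydc3, Pydc4 and Pyhin1. Of these, 7 passed in CON and 39 in TM of EC1, and 5 in CON and 35 in TM of EC2. They made up 23 of the 41 members that passed in both TM libraries and in no CON library. Of the 31 members that passed in both CON libraries and in no TM library, 0 lay here.

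Far fewer reads at these sites were listed in CON than in TM. Summed over listed sites, there were 164 reads in CON and 4781 in TM of EC1, and 117 in CON and 5998 in TM of EC2, or 1.23, 36.3, 0.815 and 28.9 RPM when scaled to all rows of the library's count table. These sums give no fold, since most of the sites passed through TM only and a site that CON does not list may have been covered. At the 13 sites listed in all 4 libraries, whose choice also leans to TM, the ratio of TM to CON had a median of 23.98 in EC1 (13.9 to 132) and of 31.7 in EC2 (14.2 to 77.4). At the other 197 members listed in all 4 libraries it was 0.808 and 0.865. Reads per transcript and the number of cells with the transcript cannot be told apart in bulk RNA.

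Whether the Ifi200 sites had like rates in CON and TM cannot be told from these values. CON listed 15 of the 44 sites in EC1 and 17 in EC2. A site is listed only with an altered read, which at few reads leaves out low CON rates. With unlisted sites as 0, the mean was 0.157 in CON and 0.370 in TM of EC1 (39 sites), and 0.255 in CON and 0.383 in TM of EC2 (35 sites). At the 9 sites with 5 or more reads in both libraries it was 0.386 in CON and 0.469 in TM of EC1 (2 higher in CON), and 0.493 in CON and 0.426 in TM of EC2 (5 higher in CON). The direction thus differed between the mice at covered sites. At the 13 sites listed in all 4 libraries, altered reads were 41.3% in CON and 46.5% in TM of EC1, and 56.9% in CON and 44.7% in TM of EC2.

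The most deeply read member of the locus lay in an RLTR10E LTR within the pseudogene Ifi203-ps, assigned to Ifi204 in the site table (chr1:173794164). It was altered in 19 of 40 reads in CON and 403 of 692 in TM of EC1, and 11 of 20 in CON and 508 of 870 in TM of EC2. Its rates, 0.475, 0.582, 0.550 and 0.584, were close although depth rose many times (adjusted p = 1, exact stratified test). Another site assigned to Ifi204, in a MMERVK10C-int element (chr1:173793745), was altered in 1 of 11, 135 of 310, 1 of 6 and 129 of 275 reads. Both TM rates were above both CON rates, with an adjusted p of 0.236 in the exact stratified test.

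The ERVB2_1-I_MM-int element of Pydc3 (chr1:173690582-173697473, Ifi208 in GENCODE) held 15 sites, the most of any element. None of them passed in a CON library, and 14 passed in EC1 TM and 8 in EC2 TM. At chr1:173697417, 1 of 2 reads was altered in CON and 77 of 262 in TM of EC1, and 1 of 4 in CON and 88 of 447 in TM of EC2. At chr1:173567257 in Pydc4 (Ifi213), neither CON library listed the site, and 3 of 25 reads were altered in EC1 TM and 7 of 50 in EC2 TM. The 31-base windows of these sites share 30 bases. The windows at chr1:173933793 in Ifi203 and chr1:173794072 in Ifi203-ps share 27 of 31. Whether reads were placed on the right copy was not tested.

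**Figure D5:**
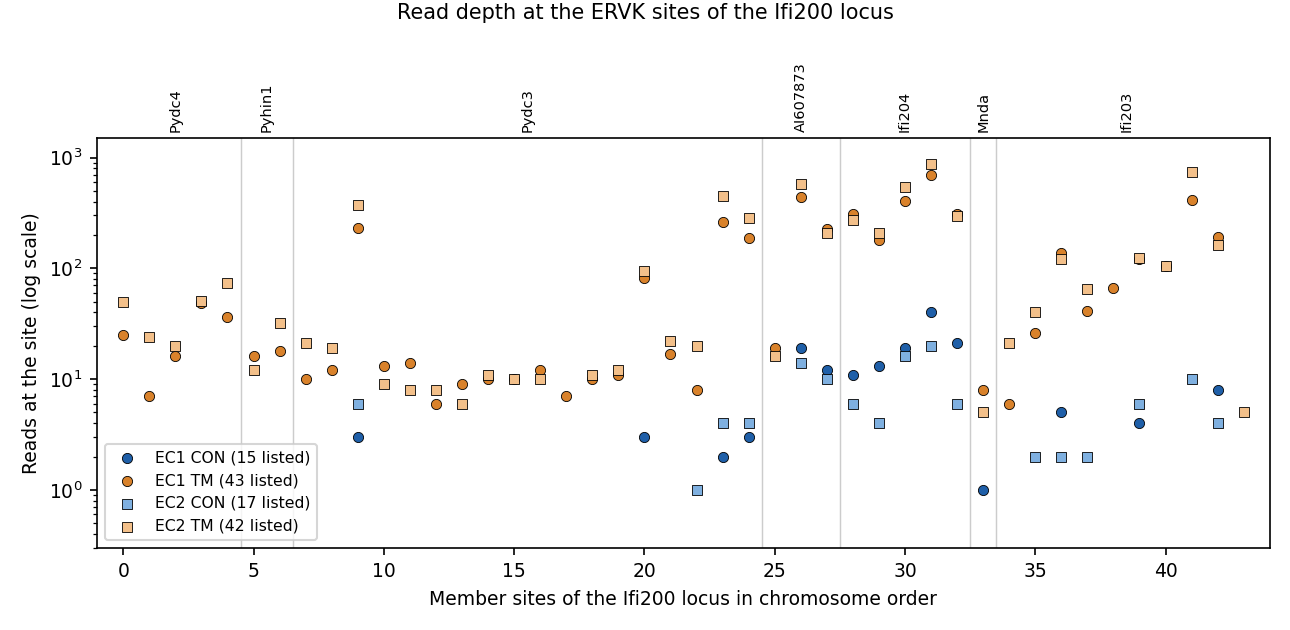
Reads at each of the 44 ERVK sites of the Ifi200 locus (x axis, in chromosome order, with the annotated gene above) on a log scale (y axis), with 1 point for each library that lists the site. The TM libraries list 43 and 42 of the sites and the CON libraries 15 and 17, and where both libraries of a mouse list a site the TM point is the higher.

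Of the 272 genes that the ERVK sites are annotated to, 144 had enough counts to be tested, and 14 were higher and 3 lower in TM (edgeR, adjusted p under 0.05). The limit of the deposited gene counts given above applies to these calls. Over all 7899 genes tested, 4.39% were higher and 3.35% lower. A gene entered through the depth of its sites, so genes with more reads in TM were favoured by the choice. The 46 sites of the 14 higher genes passed 6 times in CON and 37 in TM of EC1, and 4 in CON and 34 in TM of EC2. The share of higher genes is thus a description of the list. The median log2 difference over the 144 genes was 0.017. With the mouse as a block, 19 were higher and 10 lower. The DESeq2 test called 9 higher and 2 lower.

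Of the 7 genes of the Ifi200 locus, Pyhin1, Mnda, Pydc3, Ifi203 and Ifi204 could be tested, and these 5 were higher in TM by edgeR. In DESeq2, Mnda and Pydc3 did not pass (adjusted p = 0.0635 and 0.0859). Ifi204 had 6 counts in CON and 37 in TM of EC1, and 6 in CON and 117 in TM of EC2 (log2 difference 3.21, SE 0.506, edgeR adjusted p = 4.24e-05). Iigp1, an interferon-inducible GTPase gene, had 2, 62, 0 and 131 counts (6.04, SE 0.658, edgeR adjusted p = 8.84e-08), a difference that depends on the prior count because CON held 2 counts in all. H2-Q4, a class I histocompatibility gene, had 3, 151, 8 and 290 (4.90, SE 0.450, edgeR adjusted p = 4.94e-09). For these genes the TM and CON counts did not overlap. Gbp2, Sp110 and Nmi, which are also known as interferon-inducible genes, rose by 4.22, 3.76 and 2.03 on the log2 scale, and Slc30a7, Myo10 and Zeb2 by 1.01, 1.27 and 1.44. Trim14, another such gene, had 45, 28, 23 and 38 counts (log2 difference -0.39, edgeR adjusted p = 0.683). The uncharacterised gene 9330175E14Rik had 9, 353, 6 and 478 counts (5.43, SE 0.408, edgeR adjusted p = 1.25e-10). Reln, Tmem179 and Rasal2 were lower, with log2 differences of -1.81, -1.89 and -1.05. The calls of Nmi, Zeb2, Slc30a7 and Rasal2 were lost in DESeq2, with adjusted p values of 0.157, 0.0891, 0.103 and 0.0755.

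Of the genes named above for their inverted or alternating LTRs, Tnrc6b, Zbtb7b and Ankrd52 could be tested, and none of them passed. Tnrc6b had 59 counts in CON and 31 in TM of EC1, and 31 in CON and 32 in TM of EC2 (log2 difference -0.83, edgeR adjusted p = 0.259), and Zbtb7b had 36, 52, 20 and 73 (0.81, edgeR adjusted p = 0.244). Ankrd52, to which the RLTR33 cluster is assigned, had 40, 55, 29 and 36 (0.14, edgeR adjusted p = 0.913). Wdr76, Ids and Emd had too few counts to be tested, although reads covered their sites. Zeb2, higher in TM by edgeR, also held 2 sites with more than 24 alternating steps, in an RLTR20A4 LTR of an intron.

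Of 25 genes that silence endogenous retroviruses, 16 could be tested, with the same limit of the deposited gene counts. Daxx, a histone H3.3 chaperone gene, was higher in TM, with 28 counts in CON and 216 in TM of EC1, and 25 in CON and 272 in TM of EC2 (log2 difference 2.87, edgeR adjusted p = 7.22e-07). 2810474O19Rik was also higher, with 6, 43, 5 and 33 counts (2.49, edgeR adjusted p = 0.00424), though not in DESeq2 (adjusted p = 0.0675) or with EC1 TM left out (edgeR adjusted p = 0.135). Sumo2, which encodes a small modifier protein, was lower, with 90, 31, 83 and 65 counts (-1.25, edgeR adjusted p = 0.0220; DESeq2 adjusted p = 0.123), and its call was lost with EC1 CON, EC1 TM or EC2 CON left out. Setdb1, the histone H3 lysine methyltransferase gene of ERV heterochromatin, and Trim28, its scaffold, had log2 differences of 0.16 and -0.10 with edgeR adjusted p values of 0.835 and 0.931. The median log2 difference of the list was 0.16, and 0.00174 over all genes tested.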

How the data were processed

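RNA of lung ECs from 2 inducible ADAR1 knockout mice was sequenced as 4 libraries. The authors trimmed reads with Trimmomatic 0.38, aligned them to mm10 (GRCm38) with STAR 2.6.1a and deposited raw counts per gene from HTSeq 0.11.2. They called variants with BCFtools, whose version is not given in the sources used here, retained changes read as A to G along the strand of the annotated gene, and deposited, per library, the reference and altered reads of each site with the fraction altered. The deposited tables hold no unused per-sample columns (0). Rows that name no gene were left out of the counts. They held 92.8 to 93.9% as no feature and 5.29 to 6.32% as not uniquely aligned. Whether the low share on genes follows from the strand setting of the counting was not tested. The gene counts may thus be of reads opposite to the strand of the gene, which could not be settled here. At 1 exonic base of Ifi203 (chr1:173933793) the site table held 416 reads in EC1 TM and 733 in EC2 TM. The counts of the whole gene were 22 and 58, so they left out many of the reads there.

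Members, repeat classes and gene lists were chosen with earlier results of these data known. Rates were recomputed from reads. Read tests were exact conditional tests stratified by mouse, and Fisher's exact tests, with Benjamini-Hochberg adjustment over all sites tested. Genes were tested with edgeR 4.0.16 in R 4.3.3 (TMM, quasi-likelihood, condition only) and with DESeq2 1.42.0. Site values were computed with Python 3.11.15, pandas 2.3.3 and SciPy 1.17.1, and the steps were tested on simulated data. Named sites and elements were repeat names with 10 or more members, the 10 elements with most members, sites passing the read test, and sites with 20 or more reads in every library that moved alike in both mice. The other sites, elements and host genes named were chosen after their values were seen. CON and TM libraries of the same number come from the same mouse. Over 7899 genes their deviations from the group means correlated at 0.163. Sequences came from GENCODE vM21 transcripts, since introns and regions between genes could not be read here. Other depth, read and rate limits, other adjustments, left-out libraries, filters and tools were tried as alternatives.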

Additional observations from a re-analysis of the deposited data

Results flagged for a closer look

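With unlisted sites counted as 0, several ERVK groups lay in opposite directions in the 2 mice, as did 2 sites, and in each case the difference between the mice was not tested. IAPEY4_I-int sites were higher in CON in EC1 (CON minus TM 0.192, 12 sites) and lower in EC2 (-0.0426, 15 sites), a gap of 0.234. At sites with 5 or more reads in both libraries the values were 0.0125 and 0.0107, so the mice were not opposed there. RMER17B sites had 0.247 in EC1 (10 sites) and -0.302 in EC2 (6 sites), a gap of 0.55, and at covered sites 0.203 and -0.193 (3 sites in each mouse). The 3′ distal sites had 0.0215 (64 sites) and -0.0806 (78 sites), a gap of 0.102, but at covered sites 0.0411 and 0.0987, in the same direction.

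A site in an RLTR22_Mus LTR of the 3′ UTR of Pigm (chr1:172383016) was altered in 12 of 24 reads in EC1 CON, 6 of 25 in EC1 TM, 14 of 51 in EC2 CON and 28 of 62 in EC2 TM, so that CON minus TM was 0.26 in EC1 and -0.177 in EC2, a gap of 0.437. A site in an RLTR16 LTR in an intron of Fli1 (chr9:32459012), a transcription factor gene of ECs, was altered in 17 of 43, 22 of 33, 9 of 24 and 5 of 25 reads, with -0.271 in EC1 and 0.175 in EC2, a gap of -0.446. Neither site passed the exact stratified test (adjusted p = 1 for both).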

How the results depend on the processing

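The mean difference of CON minus TM (0.0287, and 0.0136 to 0.0438 with either mouse left out) was -0.000743 at a depth of 20, 0.00433 with 5 or more altered reads, 0.0673 over sites listed in both libraries and 0.00065 with reads pooled over sites. In alternatives chosen after seeing the data it was 0.0529 without the Ifi200 locus and -0.00797 without elements with an inverted partner. Counts of sites by the rate rule fell with depth. At a depth of 10, CON > TM held 93 sites in EC1, 74 in EC2 and 23 in both, and CON < TM 75 in EC2. At a depth of 20, CON > TM held 30, 17 and 7 in the same order and CON < TM 32, 40 and 9. With 5 or more altered reads these were 65, 66 and 20, and 55, 76 and 18. With 5 reads in both libraries of a mouse they were 61, 88 and 20, and 45, 38 and 9. Without the Ifi200 locus 17 sites were CON < TM in both mice, and without inverted partners 90 in EC2 and 26 in both were CON > TM. The read test called 0 sites higher in CON at a depth of 10 or 20, which leaves out the Nek6 site with its 8 to 15 reads, and 0 to 0 with either mouse left out, where that site no longer passed. Without the replicate block it called 1 higher in CON and 0 in TM. With the replicate block in edgeR, 19 host genes were higher and 10 lower, and 2 silencing genes were higher and 1 lower. With 10 counts in every library, 5 host genes and 1 silencing gene were higher, which tests fewer genes. DESeq2 gave 9 host genes higher, and 1 silencing gene higher and 0 lower. With 1 library left out, host genes higher ranged from 10 to 13 and lower from 3 to 5, and silencing genes higher from 1 to 2 and lower from 0 to 1. The lone library of a group was then assumed to vary like the other group. For the other moves the cause was not tested. The sign of the mean thus turned at a depth of 20 and without inverted partners.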
